A study of Mus musculus with 12 samples.

Results

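Type I interferon stimulated genes are the genes that cells switch on when they sense interferon alpha or beta. The 47 genes described here were chosen by symbol, and all 47 were present among the 12199 genes of the count table and passed the filter on low counts that left 12175 genes to test. They were listed with earlier results of these libraries in view, so counts over the list are descriptions, and each test is that of a single gene among all genes. Their values were followed in RNA from whole BM cells of C57BL/6 mice of 4 genotypes, with 3 WT, 3 DF, 3 TF and 2 TFD libraries. DF mice carried a floxed Dnmt3a allele with MxCre and a Flt3 ITD allele (Dnmt3a Flox/+, Flt3 ITD/+). TF mice lacked a Tet2 allele and carried the ITD (Tet2+/-, Flt3 ITD/+), and TFD mice combined all 3 lesions (Tet2+/-, Flt3 ITD/+, Dnmt3a Flox/+, MxCre). All mice, WT included, had been given poly(I:C) at 8 to 10 weeks of age and were analysed 8 to 9 weeks later. Poly(I:C) is a double-stranded RNA analogue that induces interferon by itself, and it serves here to turn on Cre, which the interferon-responsive Mx1 promoter drives in DF and TFD but which TF and WT mice did not carry. The WT mice came from a core facility and are not described as littermates of the mutants. TFD replicate 3 was not analysed here. Nothing in the labels says which libraries came from separate animals, so p values measure the spread between these libraries.

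Interferon alpha and beta bind a receptor made of Ifnar1 and Ifnar2 on the cell surface, and the kinases Jak1 and Tyk2 then phosphorylate transcription factors such as Stat2. Stat2 works with Irf9, and Irf9 binds the interferon-stimulated response element in the promoters of these genes. The induced proteins sense foreign RNA, cut or edit it, block its translation, hold virus particles at the membrane, or feed back on the pathway. In BM, interferon is also known to drive quiescent stem cells into cycle, and plasmacytoid dendritic cells are known as potent producers of it.

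Depth ranged from 8274153 to 15900904 counts per library, and the 47 genes together took between 0.179% and 0.420% of them. Levels are given as CPM, which scales counts to the library total corrected by TMM factors, and counts sum all exons and both alleles of a gene. The counts therefore do not give each allele of the targeted genes. Tet2 was at 148 to 169 CPM in WT, 136 to 205 in TF and 163 to 209 in TFD, with overlapping ranges, and at 196 to 246 in DF. Dnmt3a was at 30.9 to 57.8 CPM in WT, 38.0 to 46.4 in DF and 54.4 to 58.6 in TFD, where DF and TFD each overlapped WT. In TF, which has both Dnmt3a alleles, it was at 57.7 to 86.2. DF thus lay wholly below TF and TFD for Dnmt3a (log2 fold changes −0.73 and −0.44). The adjusted p of edgeR's quasi-likelihood test was 0.0551 and 0.403. Flt3 was at 20.8 to 30.1 CPM in WT and between 33.0 and 130.4 in the mutant libraries. The labels name mononuclear cells, but markers of late neutrophils, which have lobed nuclei, made up 22264 to 80219 CPM. Xist reads reached at least 10000 in 3 libraries, WT 3, TF 3 and TFD 2, and in none of the DF libraries, and the labels do not give the sex of the mice.

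Promoters of the genes were read first for the element that Irf9 binds together with Stat2. RefSeq (GRCm38.p6) promoter entries, 250 bases before to 50 after the annotated start, were matched for 36 of the 47 genes. The core of the element, GAAANNGAAA on either strand (TTTCNNTTTC when read on the other), lay in the promoters of 16 of these 36 genes. By promoter, since some genes have several starts, it lay in 18 of 43 (41.9%), against 1131 of 32851 (3.44%) of all promoters of the same length. The sequences of 6 genes with a match are shown because these genes had the largest fold changes versus WT among the genes with a match whose libraries are given one by one here, and Cmpk2 is shown because it starts head to head with Rsad2, with 12762 bases between the gene bodies. Capitals mark the matches, and each sequence is written from its own gene's strand, 5′ to 3′. Ifit3 (chr19:34583279-34583578, plus strand) had 2 matches, Ifit1 (chr19:34640639-34640938, plus strand) 2, Isg15 (chr4:156200769-156201068, minus strand) 3 of which each overlaps the next, Rsad2 (chr12:26456403-26456702, minus strand) 1, Slfn5 (chr11:82951852-82952151, plus strand) 1 and Oas3 (chr5:120777610-120777909, minus strand) 1, while the promoter of Cmpk2 (chr12:26468965-26469264, plus strand) held no such letters.
Ifit3: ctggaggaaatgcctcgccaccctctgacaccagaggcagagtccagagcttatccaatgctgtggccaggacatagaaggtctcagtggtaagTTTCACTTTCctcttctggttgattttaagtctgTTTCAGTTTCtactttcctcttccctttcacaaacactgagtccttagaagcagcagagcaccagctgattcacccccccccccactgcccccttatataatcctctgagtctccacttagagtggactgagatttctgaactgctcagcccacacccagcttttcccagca
Rsad2: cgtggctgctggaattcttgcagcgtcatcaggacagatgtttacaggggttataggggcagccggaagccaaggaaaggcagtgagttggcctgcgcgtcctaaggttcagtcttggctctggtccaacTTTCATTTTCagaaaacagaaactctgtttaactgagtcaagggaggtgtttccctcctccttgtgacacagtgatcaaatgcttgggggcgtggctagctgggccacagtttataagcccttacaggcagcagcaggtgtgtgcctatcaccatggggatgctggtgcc
Isg15: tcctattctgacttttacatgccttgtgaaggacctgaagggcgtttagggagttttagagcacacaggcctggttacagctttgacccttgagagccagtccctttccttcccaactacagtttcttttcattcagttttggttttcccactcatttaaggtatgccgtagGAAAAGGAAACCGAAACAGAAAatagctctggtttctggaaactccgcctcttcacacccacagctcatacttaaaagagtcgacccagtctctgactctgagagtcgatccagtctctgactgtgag
Ifit1: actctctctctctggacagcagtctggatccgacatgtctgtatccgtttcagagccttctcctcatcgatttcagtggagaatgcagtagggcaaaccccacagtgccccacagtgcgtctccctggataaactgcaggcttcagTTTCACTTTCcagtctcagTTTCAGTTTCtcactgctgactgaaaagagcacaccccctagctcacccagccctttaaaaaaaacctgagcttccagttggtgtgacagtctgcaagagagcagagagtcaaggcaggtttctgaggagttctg
Slfn5: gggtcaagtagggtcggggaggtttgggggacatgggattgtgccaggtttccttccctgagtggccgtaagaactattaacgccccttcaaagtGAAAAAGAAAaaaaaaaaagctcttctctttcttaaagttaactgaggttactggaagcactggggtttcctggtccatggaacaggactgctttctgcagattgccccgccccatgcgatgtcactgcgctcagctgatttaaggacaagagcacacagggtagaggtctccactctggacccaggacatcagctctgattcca
Oas3: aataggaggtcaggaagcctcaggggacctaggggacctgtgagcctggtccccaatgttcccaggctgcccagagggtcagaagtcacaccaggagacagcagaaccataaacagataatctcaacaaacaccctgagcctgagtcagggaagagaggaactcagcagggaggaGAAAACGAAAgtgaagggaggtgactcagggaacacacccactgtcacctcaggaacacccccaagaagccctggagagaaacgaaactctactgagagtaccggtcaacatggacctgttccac
Cmpk2: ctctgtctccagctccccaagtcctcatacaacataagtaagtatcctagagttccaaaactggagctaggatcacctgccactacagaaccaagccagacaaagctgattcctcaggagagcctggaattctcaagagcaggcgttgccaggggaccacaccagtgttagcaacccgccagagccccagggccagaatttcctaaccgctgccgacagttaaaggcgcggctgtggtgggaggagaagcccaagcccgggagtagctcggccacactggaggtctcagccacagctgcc
The other promoters with a match were those of Ifih1, Ddx58, Oas1a, Oas1g, Trim30a, Ddx60, Bst2, Stat2, Slfn8 and Eif2ak2. Matches began between positions −222 and 33 relative to the start, and no promoter entry was found for Dhx58, Zbp1, Usp18, Oas2, Mx1, Mx2, Parp9, Parp14, Rtp4, Ifi27l2a and Tor3a. A match says that these letters are present and not that the site was bound.

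Interferon stimulated genes stood lowest in DF and highest in TF, with WT and TFD between them. The mean level was highest in TF for 40 of the 47 genes (85.1%, against 18.1% of all genes tested) and lowest in DF for 39 (83.0%, against 21.3%). TFD lay between DF and TF in 42 genes (89.4%, against 36.8%). All 3 DF libraries lay below every other library for 21 of the 47 genes (44.7%, against 3.98% of all genes tested), and all 3 TF libraries lay above every other library for 11 (23.4%, against 2.13%). The 11 were Zbp1, Adar, Irf7, Irf9, Usp18, Mx1, Bst2, Ifi47, Parp9, Xaf1 and Ifi27l2a. The threshold for a call was 0.05 on the p of edgeR's quasi-likelihood test after Benjamini-Hochberg adjustment over all genes, given from here on as the edgeR adjusted p. Because the libraries come from bulk marrow, fewer cells of a type and less RNA per cell cannot be told apart.

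**Figure D1:**
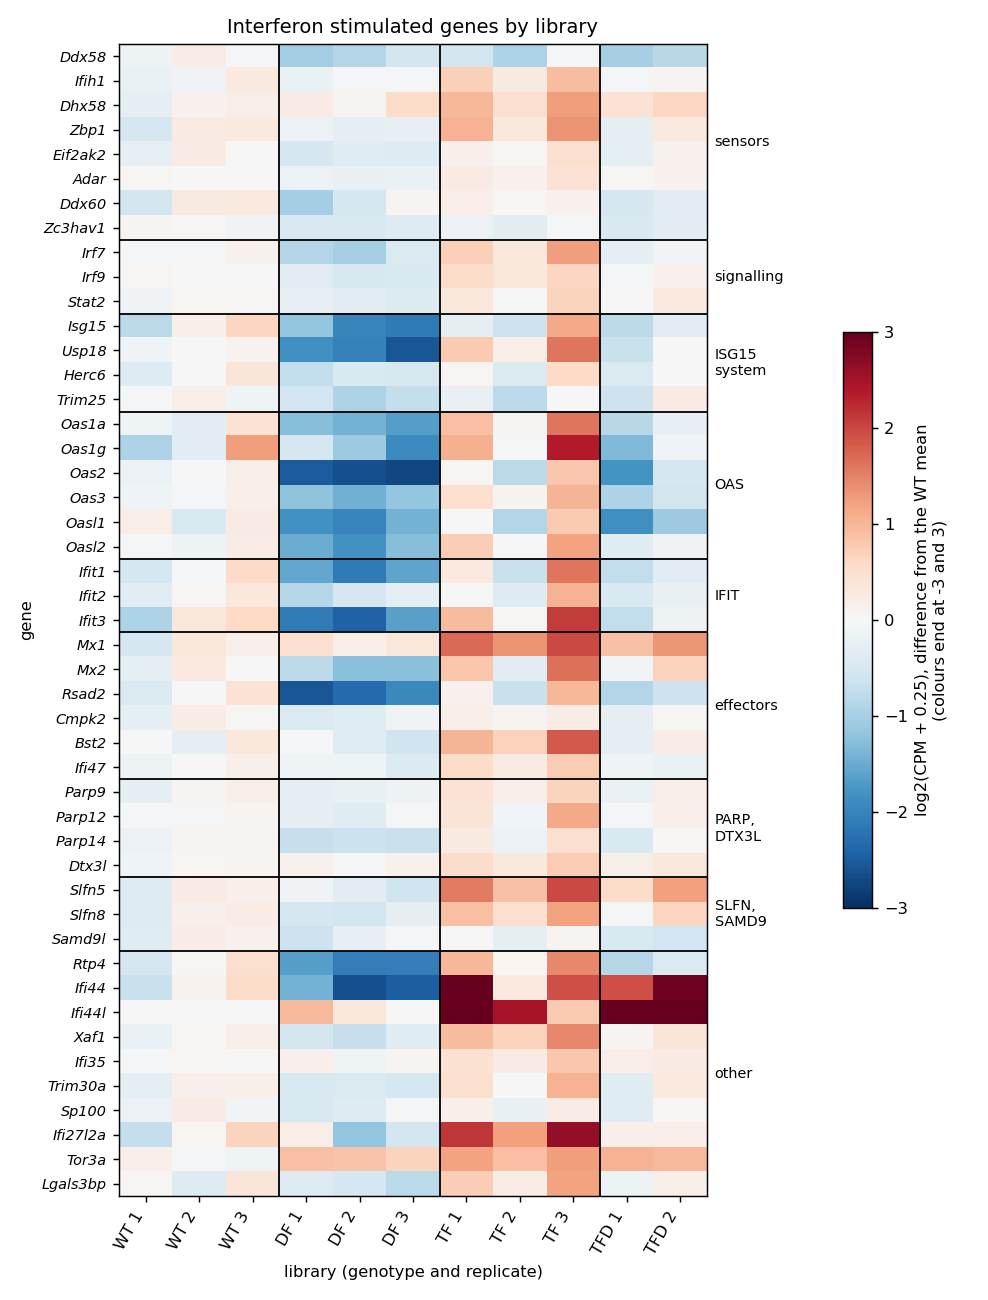
Level of each of the 47 genes in each of the 11 libraries, as the log2(CPM + 0.25) difference from the WT mean, with colours that end at −3 and 3, genes grouped by role and vertical lines between genotypes. The DF columns are mostly blue and the TF columns mostly red, with TF 3 the reddest library and Tor3a red in all 8 mutant libraries.

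Against WT, DF and TF differed in opposite directions. In DF versus WT, 18 of the 47 genes fell (38.3%, against 16.6% of all genes tested) and 1, Tor3a, rose (background 21.0%). The log2 fold change was negative for 41 of the 47 (background 45.1%), and its median was −0.49 against 0.05 over all genes tested. In TF versus WT, 25 rose (53.2%, background 19.0%), 43 had a positive fold change (background 51.6%), the median was 0.57 against 0.02 over all genes, and 0 were called lower (background 15.6%), with 1 lower at an unadjusted p under 0.05, 1 by DESeq2 and 0 by limma. In TFD versus WT, 5 genes rose (Tor3a, Mx1, Slfn5, Ifi44 and Ifi44l; background 14.7%) and 4 fell (Ddx58, Zc3hav1, Oas3 and Oasl1; background 11.6%), with 30 negative fold changes (background 49.3%) and a median of −0.13 against 0.01 over all genes. These 3 comparisons share the WT libraries. Groups did not overlap, DF below WT, for 26 genes (55.3%, background 22.5%), and TF above WT for 18 (38.3%, background 26.1%). DF lay above WT for 1, Tor3a (background 28.8%), and TFD lay above WT for 8 (background 26.0%) and below it for 8 (background 23.5%). Without WT 1, TF 1 or TF 3 the number that rose in TF was 14, 15 or 16, and without TF 3 it was 1 that fell. Without WT 1, WT 2, WT 3, TFD 1 or TFD 2 the number that rose in TFD was 2, 3, 2, 3 or 2, and without WT 2, WT 3 or TFD 1 the number that fell in TFD was 2, 2 or 0.

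Most of the 47 genes differed between DF and TF. In DF versus TF, 32 of the 47 genes were called lower in DF (68.1%, background 4.27%) and 0 higher (background 1.67%, 0 at an unadjusted p under 0.05 and 0 by DESeq2 or limma). The log2 fold change was negative for all 47 genes (background 46.0%), with a median of −1.22 against 0.02 over all genes tested. DF lay wholly below TF for 37 genes (78.7%, background 12.1%). A set of 7 genes was called lower in DF versus WT and also higher in TF versus WT, namely Irf7, Irf9, Usp18, Oas1a, Oas3, Oasl2 and Rtp4. The share of all genes with both calls was not counted, so this set is only a list of names. Without DF 2, the number called lower in DF versus TF was 18, and without TF 3 it was 24. Between TFD and either of the others, edgeR called 0 of the 47 genes, where the background was 0 in DF versus TFD and 0.00821% in each direction in TF versus TFD. In DF versus TFD the log2 fold change was negative for 45 genes (background 48.5%), the median was −0.48, and the groups did not overlap for 30 (background 14.1%). By edgeR, 22 of the 47 genes had an unadjusted p under 0.05, against 1727 of all 12175 genes tested. DESeq2 called 9 of the 47 lower and limma 0, without a count over all genes to set beside them. A fit of these groups alone called 10, and without TF 1, TF 2, TF 3 or TFD 1 the test called 1, 2, 8 or 6. In TF versus TFD the log2 fold change was positive for 46 genes (background 49.9%), the median was 0.58, and the groups did not overlap for 23 (background 12.0%). By edgeR, 26 of the 47 genes had an unadjusted p under 0.05, against 1068 of all 12175. DESeq2 called 10 of the 47 higher and limma 0, again without a count over all genes. Without TF 2 the test called 5.

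**Figure D2:**
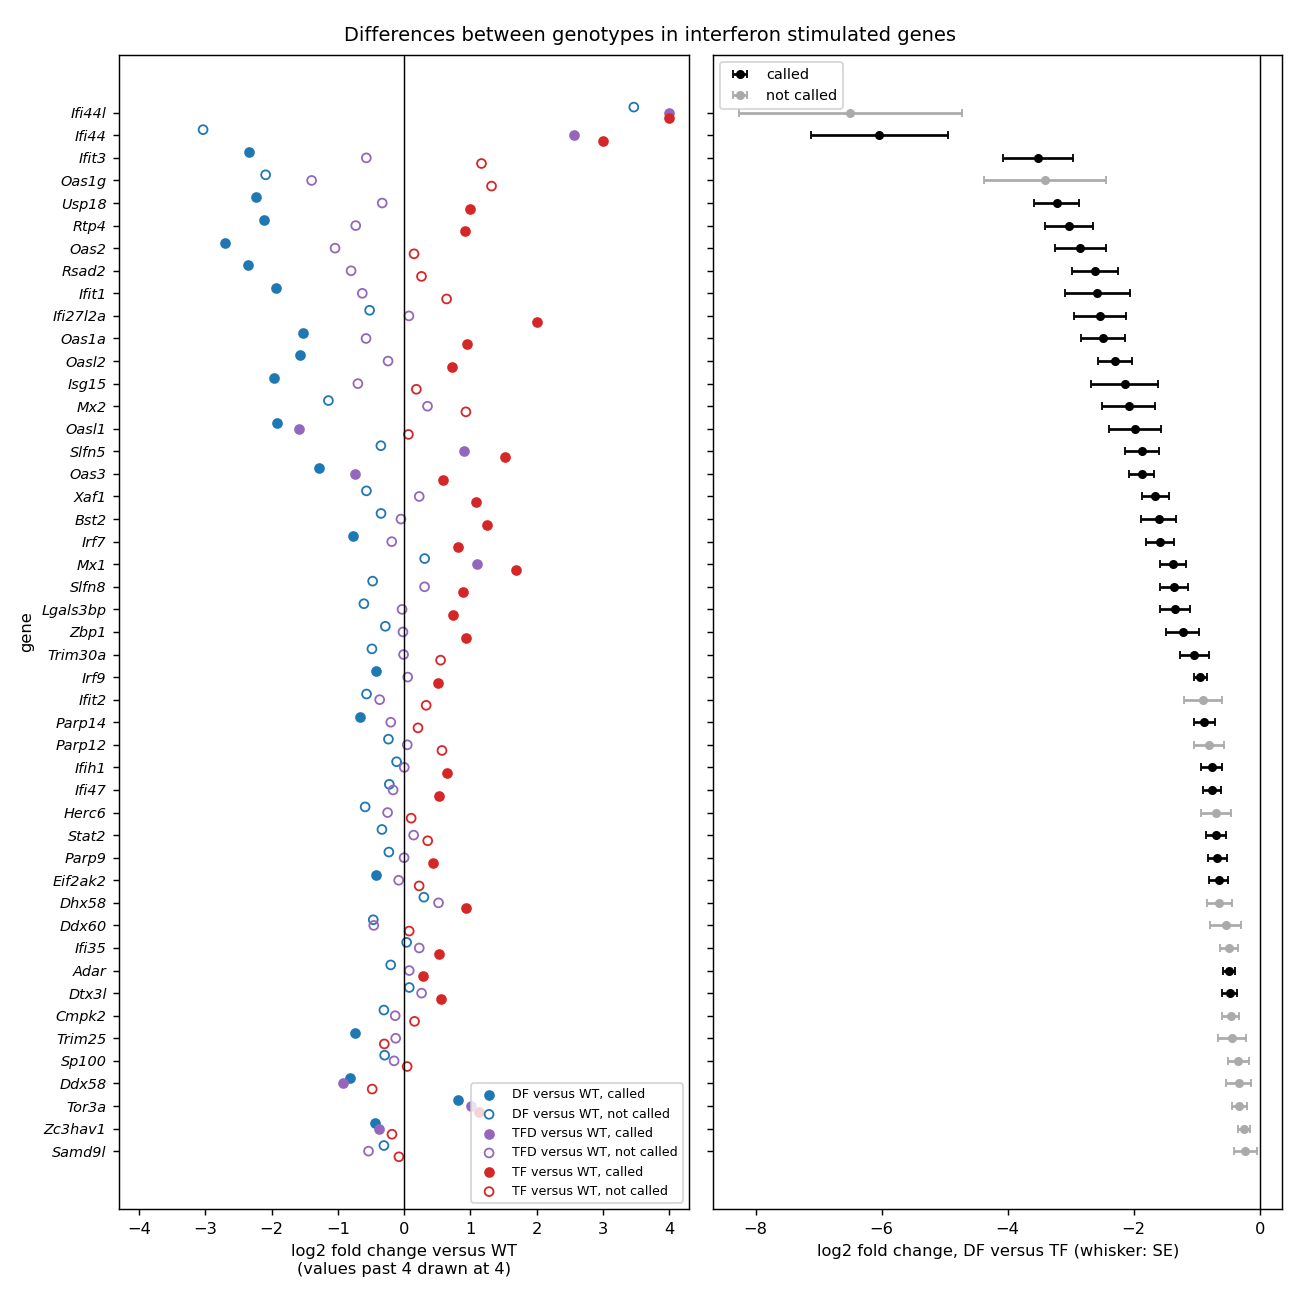
Log2 fold changes of the 47 genes, on the left for DF, TF and TFD versus WT (filled points were called, values past 4 are drawn at 4) and on the right for DF versus TF with the SE as whisker (black points were called). Blue points lie mostly left of 0 and red points mostly right of it, and all 47 values of DF versus TF lie below 0.

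Transcription factors of the pathway followed this order. Irf7, which drives the amplifying wave of interferon genes, is a short gene on chromosome 7 (141263183 to 141266424, minus strand). It was at 27.2, 27.4 and 31 CPM in the WT libraries, 15.3, 14.1 and 21.1 in DF, 46.5, 35.7 and 68.3 in TF, and 23.3 and 26.9 in TFD. The DF libraries were the 3 lowest of all libraries and the TF libraries the 3 highest. Irf7 fell in DF versus WT (log2 fold change −0.77, SE 0.22, edgeR adjusted p = 0.0144), rose in TF versus WT (log2 fold change 0.81, SE 0.21, edgeR adjusted p = 0.00988), and differed between DF and TF (log2 fold change −1.58, SE 0.22, edgeR adjusted p = 0.00299). In TFD versus WT the value was −0.19 (SE 0.24, edgeR adjusted p = 0.602), which was not called. Irf9, which gives Stat2 its binding to the response element, was at 62.8, 61.1 and 61.2 CPM in the WT libraries, 48.8, 44.2 and 45.1 in DF, 90.3, 77.6 and 97.3 in TF, and 60.5 and 67.7 in TFD. Again DF lay below and TF above all other libraries, and within each genotype the spread was small. Irf9 fell in DF versus WT (log2 fold change −0.42, SE 0.11, edgeR adjusted p = 0.0076) and rose in TF versus WT (log2 fold change 0.52, SE 0.10, edgeR adjusted p = 0.00243), with −0.94 (SE 0.11, edgeR adjusted p = 0.00122) between DF and TF. Stat2 was at 32.9, 37.3 and 36.5 CPM in the WT libraries, 29.8, 27.9 and 26.8 in DF, 44.1, 35.4 and 57 in TF, and 35.1 and 43.6 in TFD. Here the DF libraries were the lowest, but TF 2 lay within the WT range. Its difference was called only between DF and TF, at −0.69 (SE 0.16, edgeR adjusted p = 0.0233), while DF versus WT gave −0.34 (SE 0.16, edgeR adjusted p = 0.11) and TF versus WT 0.36 (SE 0.16, edgeR adjusted p = 0.0935). Leaving out DF 1 or DF 2 ended the call of Irf7 in DF versus WT, leaving out TF 3 or any single DF library ended that of Stat2, and no single library ended a call of Irf9.

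**Figure D3:**
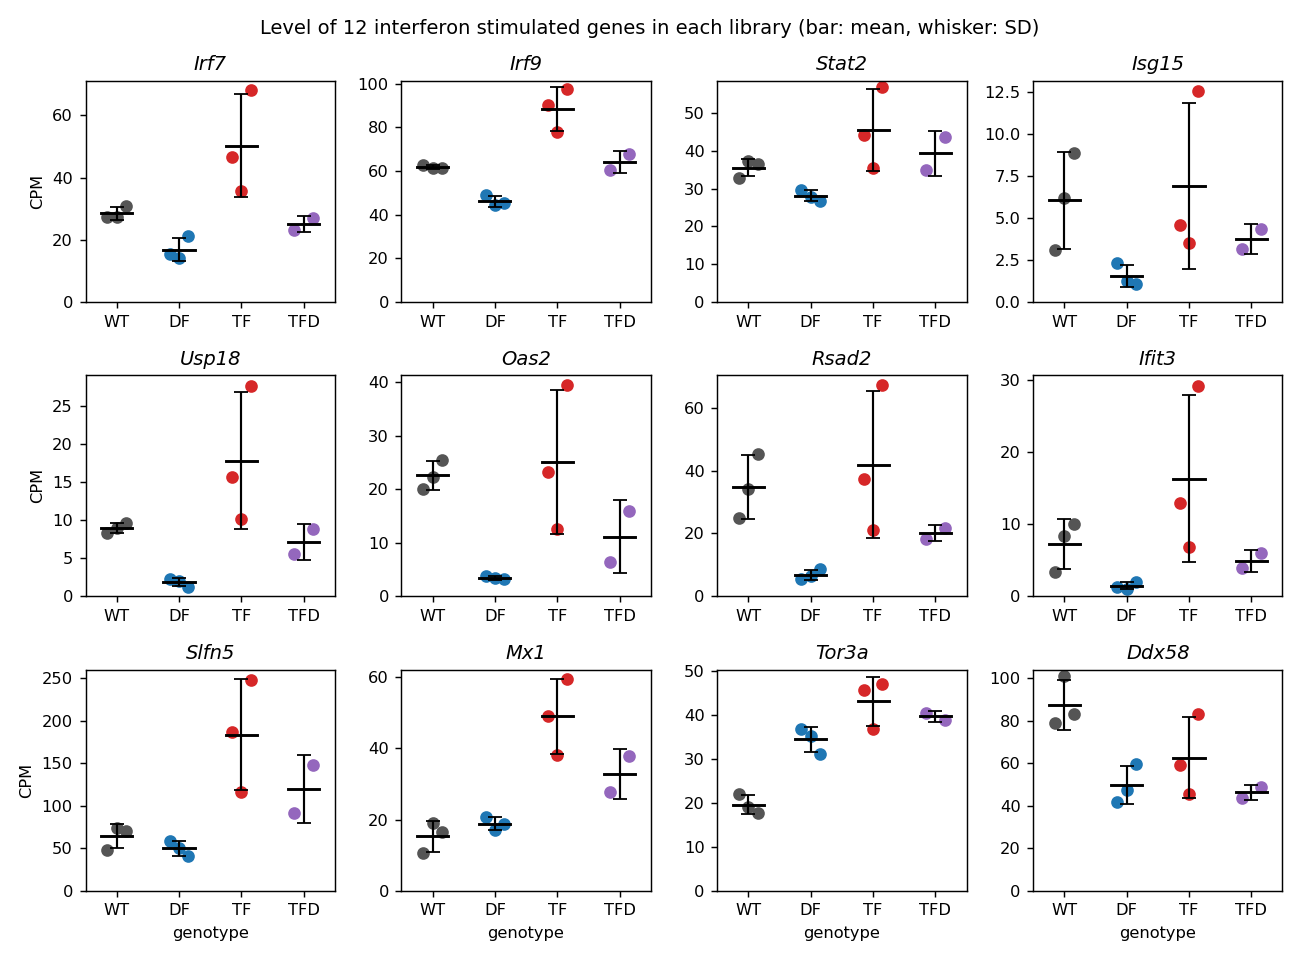
CPM of 12 of the genes in each library (points), with the mean (bar) and SD (whisker) of each genotype, on axes that start at 0. For Irf7, Irf9, Usp18 and Mx1 the TF points lie above those of all other genotypes, and Tor3a is the gene in which all mutant points lie above all WT points.

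Of the 4 genes of the ISG15 system, 3 fell in DF versus WT. Isg15 encodes a ubiquitin-like protein that is attached to other proteins, and Usp18 both removes it and restrains the interferon receptor. Usp18 was at 8.29, 8.91 and 9.58 CPM in the WT libraries, 2.30, 1.99 and 1.29 in DF, 15.6, 10.1 and 27.6 in TF, and 5.50 and 8.82 in TFD. The DF libraries were the lowest and the TF libraries the highest of all, with the largest TF value in TF 3. Usp18 fell in DF versus WT (log2 fold change −2.23, SE 0.37, edgeR adjusted p = 0.000566) and rose in TF versus WT (log2 fold change 0.99, SE 0.31, edgeR adjusted p = 0.0271), a rise that was not called without TF 3 or without any single WT library. Between DF and TF the difference was −3.22 (SE 0.36, edgeR adjusted p = 0.00122), a 9.35-fold lower level in DF. Isg15 was at 3.12, 6.19 and 8.86 CPM in the WT libraries, 2.30, 1.22 and 1.09 in DF, 4.61, 3.52 and 12.6 in TF, and 3.13 and 4.37 in TFD. DF was again the lowest, whereas the WT and TF values overlapped widely. It fell in DF versus WT (log2 fold change −1.96, SE 0.53, edgeR adjusted p = 0.0117) and was lower in DF than in TF (log2 fold change −2.14, SE 0.52, edgeR adjusted p = 0.0329), but TF versus WT gave 0.18 (SE 0.47, edgeR adjusted p = 0.786). The first call was lost without WT 3 or DF 2, and the second without WT 2, TF 3 or any single DF library. Trim25, a ubiquitin ligase that acts on the sensor RIG-I, fell in DF versus WT (log2 fold change −0.74, SE 0.22, edgeR adjusted p = 0.0197), a call lost without WT 2 or DF 2, and was not called in DF versus TF (log2 fold change −0.44, SE 0.22, edgeR adjusted p = 0.31). Herc6, which attaches ISG15 in mice, was below its WT and TF values in all DF libraries but was called in neither comparison, at −0.59 (SE 0.25, edgeR adjusted p = 0.0766) versus WT and −0.69 (SE 0.24, edgeR adjusted p = 0.127) versus TF.

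The oligoadenylate synthetases, which make the activator of the nuclease RNase L, had a median log2 fold change of −1.74 in DF versus WT. Of the 6 genes, 5 fell in DF versus WT and the same 5 were lower in DF than in TF, while 3 rose in TF versus WT. Oas1a, Oas1g, Oas2 and Oas3 lie together on chromosome 5 between 120730333 and 120907525, all on the minus strand, and Oasl1 and Oasl2 lie on the same chromosome 10994 bases apart. Oas2 was at 20.03, 22.4 and 25.5 CPM in the WT libraries, 3.81, 3.41 and 3.17 in DF, 23.4, 12.7 and 39.5 in TF, and 6.38 and 16 in TFD. All 3 DF libraries were far below the rest, and TFD 1 was below all WT and TF libraries. It fell in DF versus WT (log2 fold change −2.70, SE 0.41, edgeR adjusted p = 0.00029), a 6.51-fold lower level, and differed between DF and TF (log2 fold change −2.85, SE 0.40, edgeR adjusted p = 0.00325), but not detectably between TF and WT (log2 fold change 0.15, SE 0.35, edgeR adjusted p = 0.769). Oas3 was at 43.3, 46.3 and 52.3 CPM in the WT libraries, 20.2, 17.1 and 21.1 in DF, 67.2, 51 and 95.3 in TF, and 24.6 and 32.1 in TFD. DF and TFD both lay below WT, with DF the lower of the pair, and TF 2 lay within the WT range. Oas3 fell in DF versus WT (log2 fold change −1.28, SE 0.20, edgeR adjusted p = 0.000391) and in TFD versus WT (log2 fold change −0.74, SE 0.22, edgeR adjusted p = 0.0263), and rose in TF versus WT (log2 fold change 0.59, SE 0.19, edgeR adjusted p = 0.0312). Oasl1, a member of the family without synthetase activity that restrains Irf7 translation, was at 7.80, 4.83 and 8.06 CPM in the WT libraries, 1.75, 1.48 and 2.38 in DF, 6.63, 3.52 and 11.8 in TF, and 1.69 and 3.03 in TFD. DF and TFD overlapped, and both lay below WT and TF. It fell in DF versus WT (log2 fold change −1.91, SE 0.42, edgeR adjusted p = 0.00368) and in TFD versus WT (log2 fold change −1.58, SE 0.47, edgeR adjusted p = 0.0248). Oasl2 and Oas1a fell in DF versus WT (log2 fold changes −1.57 and −1.53) and rose in TF versus WT (log2 fold changes 0.73 and 0.95). Oas1g had at most 51 counts in a library and 0 in DF 3, and was called in no comparison. The rises of Oas3, Oasl2 and Oas1a in TF were each lost without WT 1, WT 2, TF 1 or TF 3, that of Oas1a also without DF 2. The fall of Oas3 in TFD was lost without WT 2, WT 3 or TFD 1, that of Oasl1 without WT 1, WT 3 or TFD 1, and the call of Oasl1 between DF and TF without DF 1 or DF 2. Oas1a and Oas1g are close copies, so unique alignments may split their reads unevenly.

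The Ifit genes, whose products bind foreign RNA and stop its translation, lie next to each other on chromosome 19. Ifit3 and Ifit1 fell in DF and Ifit2 was called in no comparison. Ifit3 was at 3.37, 8.42 and 10.1 CPM in the WT libraries, 1.35, 1.03 and 1.98 in DF, 12.9, 6.79 and 29.3 in TF, and 3.88 and 5.97 in TFD. Every DF library was below every other library, and TF 3 was the highest. The fall in DF versus WT was −2.35 (SE 0.58, edgeR adjusted p = 0.007), and DF was 11.4-fold below TF (log2 fold change −3.52, SE 0.56, edgeR adjusted p = 0.00469). The difference of TF from WT was 1.17 (SE 0.48, edgeR adjusted p = 0.0744). Ifit1 was at 5.17, 7.30 and 11.4 CPM in the WT libraries, 2.38, 1.54 and 2.38 in DF, 9.29, 4.66 and 23.4 in TF, and 4.44 and 5.88 in TFD. The DF libraries were again the lowest, and TF 2 lay below the lowest WT library. Ifit1 fell in DF versus WT (log2 fold change −1.93, SE 0.53, edgeR adjusted p = 0.0119), which lost its call without WT 3 or DF 2, and was lower in DF than in TF (log2 fold change −2.58, SE 0.52, edgeR adjusted p = 0.0144), which lost it without DF 2 or DF 3. For Ifit2 the values were −0.57 in DF versus WT and −0.90 in DF versus TF. The printed promoters of Ifit3 and Ifit1 each hold a pair of matches, and that of Ifit2 held none.

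Sensors and modifiers of foreign RNA had a median log2 fold change of −0.59 in DF versus TF, and not all followed the main order. Of the 8 genes, 3 fell in DF versus WT (Ddx58, Zc3hav1 and Eif2ak2), 4 rose in TF versus WT (Ifih1, Dhx58, Zbp1 and Adar) and 4 were lower in DF than in TF (Ifih1, Zbp1, Eif2ak2 and Adar). Ddx58, which encodes the sensor RIG-I, departed from the main order. It was at 78.7, 101 and 83.1 CPM in the WT libraries, 41.9, 47.5 and 59.8 in DF, 59.3, 45.4 and 83.3 in TF, and 43.8 and 48.8 in TFD. All DF and TFD libraries were below WT, and TF ranged from the DF to the WT level. Ddx58 fell in DF versus WT (log2 fold change −0.82, SE 0.20, edgeR adjusted p = 0.00626) and in TFD versus WT (log2 fold change −0.92, SE 0.22, edgeR adjusted p = 0.00929), and TF versus WT gave −0.48 (SE 0.20, edgeR adjusted p = 0.0727), the lowest value of the 47 genes in that comparison. Zc3hav1, which encodes the antiviral protein ZAP, was at 197, 190.1 and 174 CPM in the WT libraries, 136, 136 and 144 in DF, 166, 149 and 179 in TF, and 137 and 151 in TFD. WT had the highest mean, and DF and TFD lay wholly below WT. It fell in DF versus WT (log2 fold change −0.43, SE 0.10, edgeR adjusted p = 0.00462) and in TFD versus WT (log2 fold change −0.38, SE 0.11, edgeR adjusted p = 0.024). Ifih1 and Dhx58, which encode the related helicases MDA5 and LGP2, rose in TF versus WT (log2 fold changes 0.65 and 0.94). Zbp1, a sensor of left-handed nucleic acids, rose in TF versus WT (log2 fold change 0.94, SE 0.27, edgeR adjusted p = 0.0167), and so did Adar, which edits adenosines in double-stranded RNA (log2 fold change 0.28, SE 0.10, edgeR adjusted p = 0.0408), a call that 11 of 21 other settings lost. Eif2ak2, the kinase PKR that halts translation, fell in DF versus WT (log2 fold change −0.42, SE 0.16, edgeR adjusted p = 0.0473), close to the threshold, and was lower in DF than in TF (log2 fold change −0.65, SE 0.15, edgeR adjusted p = 0.0293). Ddx60, a helicase, was called in no comparison. Between DF and TF the calls of Ifih1, Zbp1 and Eif2ak2 were lost without TF 3 or any single DF library, and that of Adar without DF 2 or TF 3. The fall of Eif2ak2 in DF was lost without WT 2, WT 3, TF 1 or any single DF library, the rise of Zbp1 in TF without WT 1, TF 1 or TF 3, and that of Adar without any single WT library, DF 1, DF 2, TF 1 or TF 3. In TFD the fall of Ddx58 was lost without TFD 1, and that of Zc3hav1 without WT 1, WT 2 or TFD 1.

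Of the 6 effectors at membranes and in nucleotide metabolism, 5 were lower in DF than in TF, 3 rose in TF versus WT (Mx1, Bst2 and Ifi47) and 1, Rsad2, fell in DF versus WT. The dynamin-like GTPases Mx1 and Mx2 lie head to head on chromosome 16, and C57BL/6 mice are known to carry a defective Mx1 allele whose transcript is still induced. Mx1 was at 10.5, 19.1 and 16.5 CPM in the WT libraries, 20.7, 17.1 and 18.8 in DF, 49.1, 38.3 and 59.6 in TF, and 27.8 and 37.9 in TFD. The TF libraries were the highest, TFD lay between TF and the rest, and DF overlapped WT. Mx1 rose in TF versus WT (log2 fold change 1.69, SE 0.22, edgeR adjusted p = 0.000126) and in TFD versus WT (log2 fold change 1.11, SE 0.24, edgeR adjusted p = 0.00441), while DF versus WT gave 0.31 (SE 0.22, edgeR adjusted p = 0.285). DF and TFD both carry the Cre transgene under the Mx1 promoter and gave −0.80 (SE 0.23, edgeR adjusted p = 0.174) when compared with each other. Mx2 was lower in DF than in TF (log2 fold change −2.08, SE 0.42, edgeR adjusted p = 0.0149), a call lost without DF 2 or DF 3. Rsad2, which encodes viperin, an enzyme that makes a chain-terminating nucleotide, was at 24.9, 34.2 and 45.4 CPM in the WT libraries, 5.48, 6.50 and 8.61 in DF, 37.2, 21 and 67.1 in TF, and 18.2 and 21.8 in TFD. DF was the lowest in every library, TFD was below WT, and TF spanned the WT range. Rsad2 fell in DF versus WT (log2 fold change −2.35, SE 0.37, edgeR adjusted p = 0.000398) and was 6.12-fold lower in DF than in TF (log2 fold change −2.61, SE 0.37, edgeR adjusted p = 0.00325). Its head-to-head neighbour Cmpk2, a mitochondrial nucleotide kinase, was called in no comparison, with −0.31 (SE 0.14, edgeR adjusted p = 0.104) in DF versus WT and −0.46 (SE 0.14, edgeR adjusted p = 0.074) in DF versus TF. Bst2, which encodes tetherin, a protein that holds virus particles at the cell surface, was at 19, 15.6 and 24.2 CPM in the WT libraries, 18.7, 14.8 and 12.7 in DF, 39.2, 31.4 and 70.05 in TF, and 15.7 and 22.5 in TFD. TF lay above all other libraries, and DF, WT and TFD overlapped. Bst2 rose in TF versus WT (log2 fold change 1.25, SE 0.28, edgeR adjusted p = 0.00403) and was lower in DF than in TF (log2 fold change −1.60, SE 0.28, edgeR adjusted p = 0.00676). Ifi47, an interferon-inducible GTPase, rose in TF versus WT (log2 fold change 0.53) and was lower in DF than in TF (log2 fold change −0.75), the rise being lost without WT 1.

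In DF versus TF the PARP genes and Dtx3l had a median log2 fold change of −0.74, and the Schlafen genes with Samd9l one of −1.36. Parp9 and Dtx3l, whose products form an ADP-ribosylating ubiquitin ligase complex, start head to head and overlap by 558 bases on chromosome 16, with Parp14 on the same stretch, so without a stated strand setting a part of their reads cannot be assigned to one gene with certainty. Parp9 and Dtx3l rose in TF versus WT (log2 fold changes 0.44 and 0.55), and Parp14 fell in DF versus WT (log2 fold change −0.67). All 3 were lower in DF than in TF (log2 fold changes −0.67, −0.47 and −0.88). Without TF 3 or any single DF library the calls of Parp9 and Dtx3l between DF and TF were lost, and that of Dtx3l also without WT 2 or TF 1, while that of Parp14 was lost without DF 2. The rise of Parp9 in TF was lost without WT 1, WT 2, DF 2, TF 1 or TF 3. Parp12 was called in no comparison. Slfn5 was at 48, 74.1 and 70.02 CPM in the WT libraries, 58.8, 49.8 and 41.5 in DF, 187, 117 and 248 in TF, and 91.7 and 148 in TFD. All TF and TFD libraries were above all WT and DF libraries, and DF overlapped WT. Slfn5 rose in TF versus WT (log2 fold change 1.52, SE 0.27, edgeR adjusted p = 0.001) and in TFD versus WT (log2 fold change 0.90, SE 0.29, edgeR adjusted p = 0.0345), and was lower in DF than in TF (log2 fold change −1.87, SE 0.27, edgeR adjusted p = 0.00325). Its rise in TFD was lost without WT 1, WT 3 or TFD 2. Slfn8, its neighbour on chromosome 11 and one of several similar Schlafen genes, rose in TF versus WT (log2 fold change 0.88) and was lower in DF than in TF (log2 fold change −1.36). Samd9l, which encodes a growth-restraining protein of haematopoietic cells, was called in no comparison and had the smallest difference between DF and TF of the 47 genes, at −0.23.

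Among the remaining genes, Ifi27l2a, Ifi44 and Ifi44l had the largest fold changes of TF versus WT. Ifi27l2a, a small mitochondrial and nuclear envelope protein, was at 16.2, 27.8 and 42.9 CPM in the WT libraries, 30.7, 11.8 and 18.2 in DF, 119.5, 63.7 and 167 in TF, and 29.96 and 30.9 in TFD. TF was above all other libraries, and the other 3 genotypes overlapped. It rose 4.04-fold in TF versus WT (log2 fold change 2.01, SE 0.40, edgeR adjusted p = 0.00224) and was lower in DF than in TF (log2 fold change −2.53, SE 0.41, edgeR adjusted p = 0.00482). Ifi44 was at 0.985, 1.86 and 2.60 CPM in the WT libraries, 0.476, 0.0644 and 0.0990 in DF, 33.9, 2.13 and 7.21 in TF, and 7.19 and 14.4 in TFD. TF 1 alone held most of the TF signal, while both TFD libraries were above all WT libraries. Ifi44 rose in TF versus WT (log2 fold change 3.0, SE 0.81, edgeR adjusted p = 0.0128), not called without TF 1 or without WT 1, and in TFD versus WT (log2 fold change 2.57, SE 0.87, edgeR adjusted p = 0.0446), a call that 11 of 21 other settings lost, among them each that left out a single WT, DF or TFD library. It was lower in DF than in TF (log2 fold change −6.04, SE 1.08, edgeR adjusted p = 0.00789), a call that rests on 6, 1 and 1 counts in DF and was lost without DF 2. Its neighbour Ifi44l had 0 counts in all 3 WT libraries, 3, 1 and 0 counts in DF, 366, 14 and 2 in TF, and 93 and 123 in TFD. The gene was thus at or near 0 in WT and DF, which have both Tet2 alleles, and was present in both TFD libraries. Within TF it varied widely, and TF 3, with 2 counts, lay below DF 1, with 3. Against the 3 counts per library that 0 counts allow, the TF mean was at least 27.7-fold higher (edgeR adjusted p = 0.0143) and the TFD mean at least 22.6-fold higher (edgeR adjusted p = 0.027) than WT. The TF bound rests on TF 1, without which the bound was 1.79-fold. The TFD call was lost without any single WT library, and without TF 1, TF 2, TFD 1 or TFD 2 the gene no longer passed the filter on low counts and was not tested. Both genes lie on chromosome 3, as does Tet2, 18.2 Mb away from it. Whether the Tet2 allele or this position bears on their levels was not tested.

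Rtp4, a receptor chaperone, was at 4.84, 7.18 and 9.85 CPM in the WT libraries, 2.06, 1.48 and 1.48 in DF, 14.3, 7.28 and 19.6 in TF, and 3.75 and 5.08 in TFD. DF was the lowest in every library, and TF overlapped WT only in TF 2. It fell in DF versus WT (log2 fold change −2.11, SE 0.39, edgeR adjusted p = 0.00118) and was 8.13-fold lower in DF than in TF (log2 fold change −3.02, SE 0.38, edgeR adjusted p = 0.00238), while its rise in TF versus WT of 0.91 (SE 0.33, edgeR adjusted p = 0.0494) was lost under 14 of 21 other settings, among them each that left out a single library other than WT 3 or TF 2. Xaf1, a proapoptotic factor, was at 5.75, 6.81 and 7.52 CPM in the WT libraries, 4.45, 3.99 and 5.15 in DF, 13.1, 11 and 18.6 in TF, and 7.07 and 8.64 in TFD. DF lay below and TF above all other libraries. It rose in TF versus WT (log2 fold change 1.09, SE 0.21, edgeR adjusted p = 0.00214) and was lower in DF than in TF (log2 fold change −1.66, SE 0.22, edgeR adjusted p = 0.00266). Tor3a, an interferon-responsive torsin ATPase of the endoplasmic reticulum, was at 21.9, 19.2 and 17.8 CPM in the WT libraries, 36.8, 35.3 and 31.2 in DF, 45.7, 36.7 and 47 in TF, and 40.5 and 38.9 in TFD. Every mutant library was above every WT library, and the TF values overlapped those of DF and of TFD. Tor3a rose in DF versus WT (log2 fold change 0.81, SE 0.13, edgeR adjusted p = 0.000422), in TF versus WT (log2 fold change 1.13, SE 0.13, edgeR adjusted p = 5.11e-05) and in TFD versus WT (log2 fold change 1.01, SE 0.14, edgeR adjusted p = 0.00026). Lgals3bp, a secreted galectin-binding glycoprotein, and Ifi35 rose in TF versus WT (log2 fold changes 0.74 and 0.53). Lgals3bp and Trim30a, a regulator of innate signalling with several close relatives, were lower in DF than in TF (log2 fold changes −1.34 and −1.04). The rise of Lgals3bp was lost without WT 1, WT 2, TF 1 or TF 3, and the call of Trim30a without TF 3 or any single DF library. Sp100, a protein of nuclear bodies, was called in no comparison. Of the calls over the 47 genes, 14 of 19 in DF versus WT, 14 of 25 in TF versus WT, 2 of 9 in TFD versus WT (Mx1 and Tor3a) and 18 of 32 in DF versus TF were lost in no fit that left out 1 library.

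Levels were compared between genes only per length. As mean CPM per kilobase of exon, the 47 genes had medians of 9.20 (WT), 7.57 (DF), 12.9 (TF) and 9.37 (TFD), and all genes tested had medians of 10.8 to 10.9. Samd9l had the highest level per kilobase in WT (100.4) and DF (81.3), Ifi27l2a in TF (132) and Sp100 in TFD (78.9). The genes most abundant per length in WT, DF and TFD, Samd9l and Sp100, were thus among those called in no comparison.

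The interferon stimulated genes also varied between libraries of a genotype, most of all in TF. The median SD of log2 CPM over the 47 genes was 0.47 in TF, 0.25 in WT, 0.21 in DF and 0.28 in TFD, against 0.15 to 0.18 over all genes. TF 3 was the highest of all 11 libraries for 38 of the 47 genes, and TF 2 the lowest TF library for 46. As a median over the 47 genes, the log2 difference from the WT mean was 0.54, 0.07 and 1.06 in TF 1, TF 2 and TF 3, −0.51, −0.51 and −0.45 in the DF libraries, −0.30 and 0.08 in the TFD libraries, and −0.19, 0.04 and 0.16 in the WT libraries. TF 2 was thus near WT, and the 3 DF libraries lay close together. The 3 libraries with many Xist reads were the highest of their own genotype for 30 of 47 genes in WT, 44 in TF and 44 in TFD, against 31.9%, 37.9% and 48.8% of all genes. With only the 8 libraries that have few Xist reads, 30 genes were lower in DF than in TF, 20 fell in DF versus WT and 18 rose in TF versus WT. The median difference between DF and TF was then −0.90 in place of −1.22.

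Markers of several cell types followed the order of the interferon stimulated genes only in part. Within TF and within TFD, the plasmacytoid dendritic cell list ranked the libraries as the median over those genes did. The erythroid and macrophage lists put TF 1 below TF 2 and TFD 2 below TFD 1, the reverse of that median. All WT libraries also lay above TF 1 and TF 2 for the plasmacytoid dendritic cell and erythroid lists. Plasmacytoid dendritic cell markers (9 genes, summed) were at 357 to 402 CPM in WT, 89.3 to 104 in DF, 245, 186 and 522 in TF, and 117 and 214 in TFD, and TF 3 was again the highest library. Of these 9 markers, 8 were lower in DF than in WT (background 16.6%) and 8 lower in DF than in TF (background 4.27%). Siglech, a receptor that defines these cells, was at 35.5 to 42.3 CPM in WT, 0.0644 to 1.35 in DF, 15.8, 11.9 and 63.2 in TF, and 0.50 and 5.26 in TFD. Erythroid markers (10 genes) were at 1508 to 1977 CPM in WT, 274 to 402 in DF, 492, 587 and 1345 in TF, and 535 and 457 in TFD, and 9 of 10 were lower in DF than in TF. Macrophage markers (9 genes) were at 243 to 344 CPM in WT, 212 to 231 in DF, 233 to 380 in TF and 225 to 250.5 in TFD, with 4 lower in DF than in TF. The sum hides opposite directions. Versus WT, 8 of the 9 were called lower in DF (median log2 fold change −2.00), 3 in TF and 5 in TFD. The 1 called higher in each was Adgre1, at 55.2 to 60.5 CPM in WT and 107.6 to 125.4 in the mutants. TF 3 was the highest TF library for all 3 of these lists, and DF the lowest genotype for the plasmacytoid dendritic cell and erythroid lists. Monocyte markers (9 genes) were at 2207 to 2522 CPM in WT and 6370 to 9057 in the 8 mutant libraries, and edgeR called 0 of the 9 between DF and TF, with 3 at an unadjusted p under 0.05. B cell markers (10 genes) were at 503 to 603 CPM in WT and 16.5 to 116 in the mutants, with the highest mutant value in TF 3. Every DF library was below every TF library for the summed B cell markers, but narrowly, with DF 1 at 26.8 CPM and TF 1 at 27.2. Of the 10, 1, Cd22, was called lower in DF than in TF, with 7 at an unadjusted p under 0.05. T cell markers (8 genes) were at 57.5 to 65.3 CPM in WT, 17.9 to 30.6 in DF, 30.1, 26.4 and 67.1 in TF, and 23.6 and 17.3 in TFD. Of these 8, 6 were called lower in DF than in WT. In DF versus TF 1 was called lower, with 6 at an unadjusted p under 0.05. NK cell markers (7 genes) were at 43.9 to 79.7 CPM over all libraries, of which Nkg7 alone held 31.3 to 69.4. Versus WT, 5 of the 7 were called lower in DF and 5 in TF, with 1 higher in TF. In DF versus TF 1 was called lower, with 2 at an unadjusted p under 0.05. Late neutrophil markers (9 of 10 listed genes in the table) were at 50213 to 62912 CPM in WT, 56664 to 80219 in DF, 35744 to 46048 in TF, and 44992.5 and 22264 in TFD. TF 3 was the lowest TF library and TFD 2 the lowest of all. Versus WT, 0 of the 9 were called in DF, 3 were lower in TF and 1 was lower in TFD. Between DF and TF edgeR called 0, with 7 at an unadjusted p under 0.05. Over all 12175 genes tested, 2316 had an unadjusted p under 0.05 in DF versus TF. The part of these cell types in the differences of the interferon stimulated genes was not tested.

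**Figure D4:**
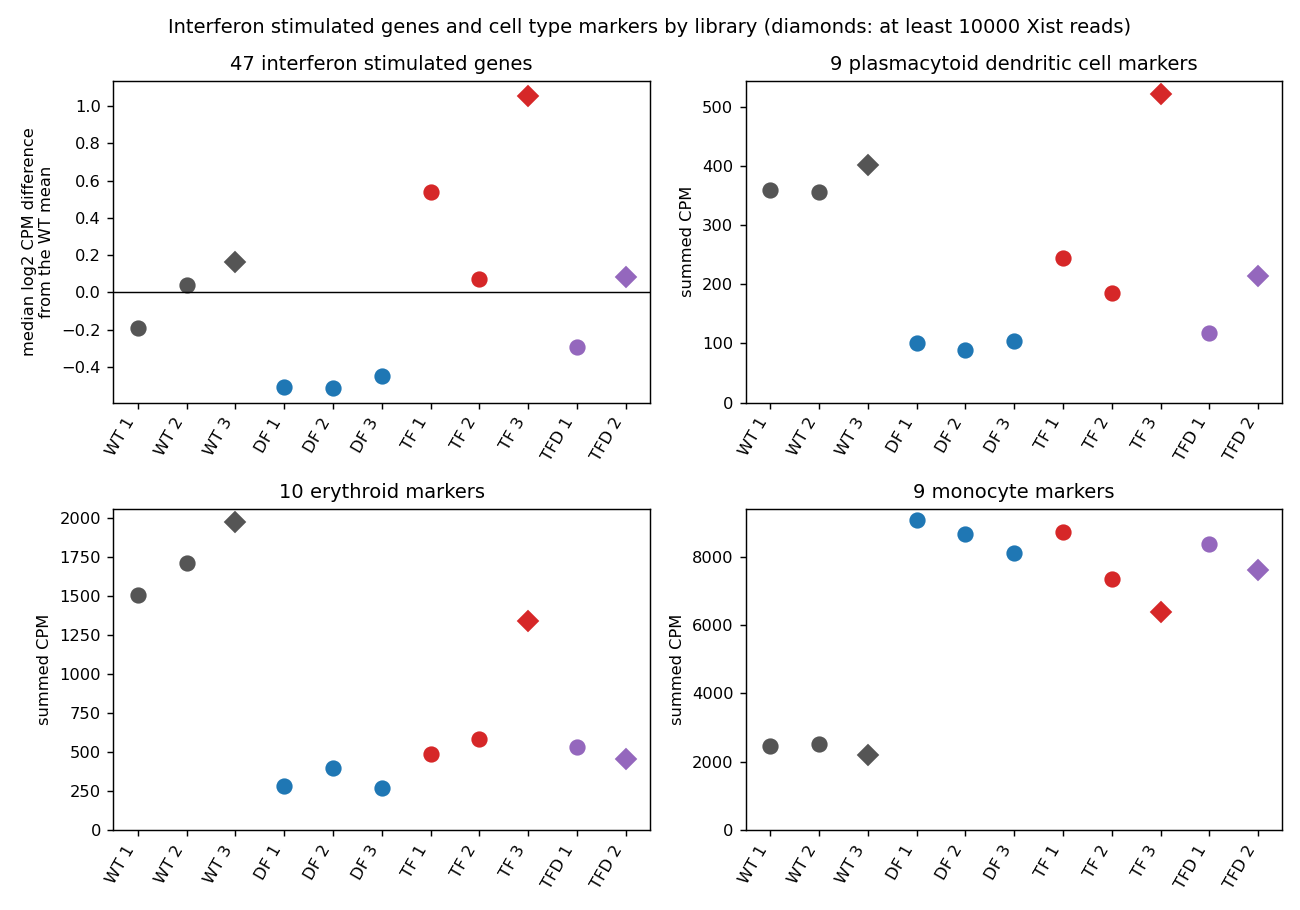
For each library, the median log2 CPM difference from the WT mean over the 47 genes (top left), and the summed CPM of 9 plasmacytoid dendritic cell, 10 erythroid and 9 monocyte markers, with diamonds for the 3 libraries that have at least 10000 Xist reads. TF 3 is the highest library for the interferon stimulated genes and the plasmacytoid dendritic cell markers, and the DF libraries are the lowest for both and for the erythroid markers, but not for the monocyte markers.

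Genes upstream in the pathway were mostly not called between DF and TF. Of the receptor chains and kinases (4 genes), 2 rose and 1 fell in DF versus WT, 3 rose and 1 fell in TF versus WT, and 2 rose and 1 fell in TFD versus WT, and edgeR called 0 between DF and TF, also without adjustment. Ifnar2 and Tyk2 rose in all 3 mutants versus WT, Ifnar2 by 0.71 (DF), 0.81 (TF) and 0.69 (TFD) and Tyk2 by 0.72, 0.73 and 0.98 on the log2 scale. Jak1 fell in all 3 (log2 fold changes −0.50, −0.58 and −0.50). Among 6 further transcription factors, Irf5 and Irf8, which are high in monocytes, rose in all 3 mutants, by 1.31 to 1.71 on the log2 scale. Of 10 sensing adaptors and kinases, Tmem173, which encodes STING, rose in all 3 mutants (log2 fold changes 0.83, 1.07 and 0.77), and 1 of the 10 was called in each direction between DF and TF. Of 6 inhibitors of the pathway, 1 rose in DF, 1 rose in TF and 1 fell in TFD versus WT. Over all genes tested, 21.0% rose and 16.6% fell in DF, 19.0% and 15.6% in TF, and 14.7% and 11.6% in TFD versus WT. In DF versus TF, 4.27% of all genes were called lower and 1.67% higher. Lists this short do not separate a few calls from these shares. Of 7 interferon genes listed, Ifng was the one in the table, and it fell in all 3 mutants, from 2.60 to 4.11 CPM in WT to 0.635 to 2.19 CPM.

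Genes best known as targets of interferon gamma (20 genes) were also low in DF. In DF versus WT, 9 fell (background 16.6%) and 2 rose (background 21.0%), and in TFD versus WT, 7 fell (background 11.6%) and 2 rose (background 14.7%). In TF versus WT, 3 rose (background 19.0%) and 1 fell (background 15.6%), both shares below those over all genes. Between DF and TF, 12 were lower in DF (background 4.27%), with a median log2 fold change of −1.01 over the 20. Gbp3 and Gbp7 rose in all 3 mutants, Gbp3 by 1.29, 1.33 and 1.37 and Gbp7 by 0.55, 1.02 and 1.14 on the log2 scale in DF, TF and TFD, whereas Gbp9 fell in all 3 (log2 fold changes −2.04, −0.66 and −1.15). These guanylate binding proteins attack the vacuoles of intracellular pathogens.

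Genes with and without a match of the response element core were set side by side. For the 16 genes with a match, the median log2 fold change of DF versus TF was −1.74 (range −3.52 to −0.33), and 13 were called lower in DF. For the 20 without a match it was −0.78 (range −6.50 to −0.23), and 10 were called lower. For the 11 genes with no promoter entry the median was −1.38, with 9 called lower. The ranges overlap widely, and Ifi44 and Ifi44l, with the most negative values of all, had no match. With the shorter core GAAANNGAA, which contains the longer one, 21 of the 36 genes had a match, against 2812 of 32851 (8.56%) of all promoters. Several of the genes are neighbours on a chromosome, so they are not independent examples.

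**Figure D5:**
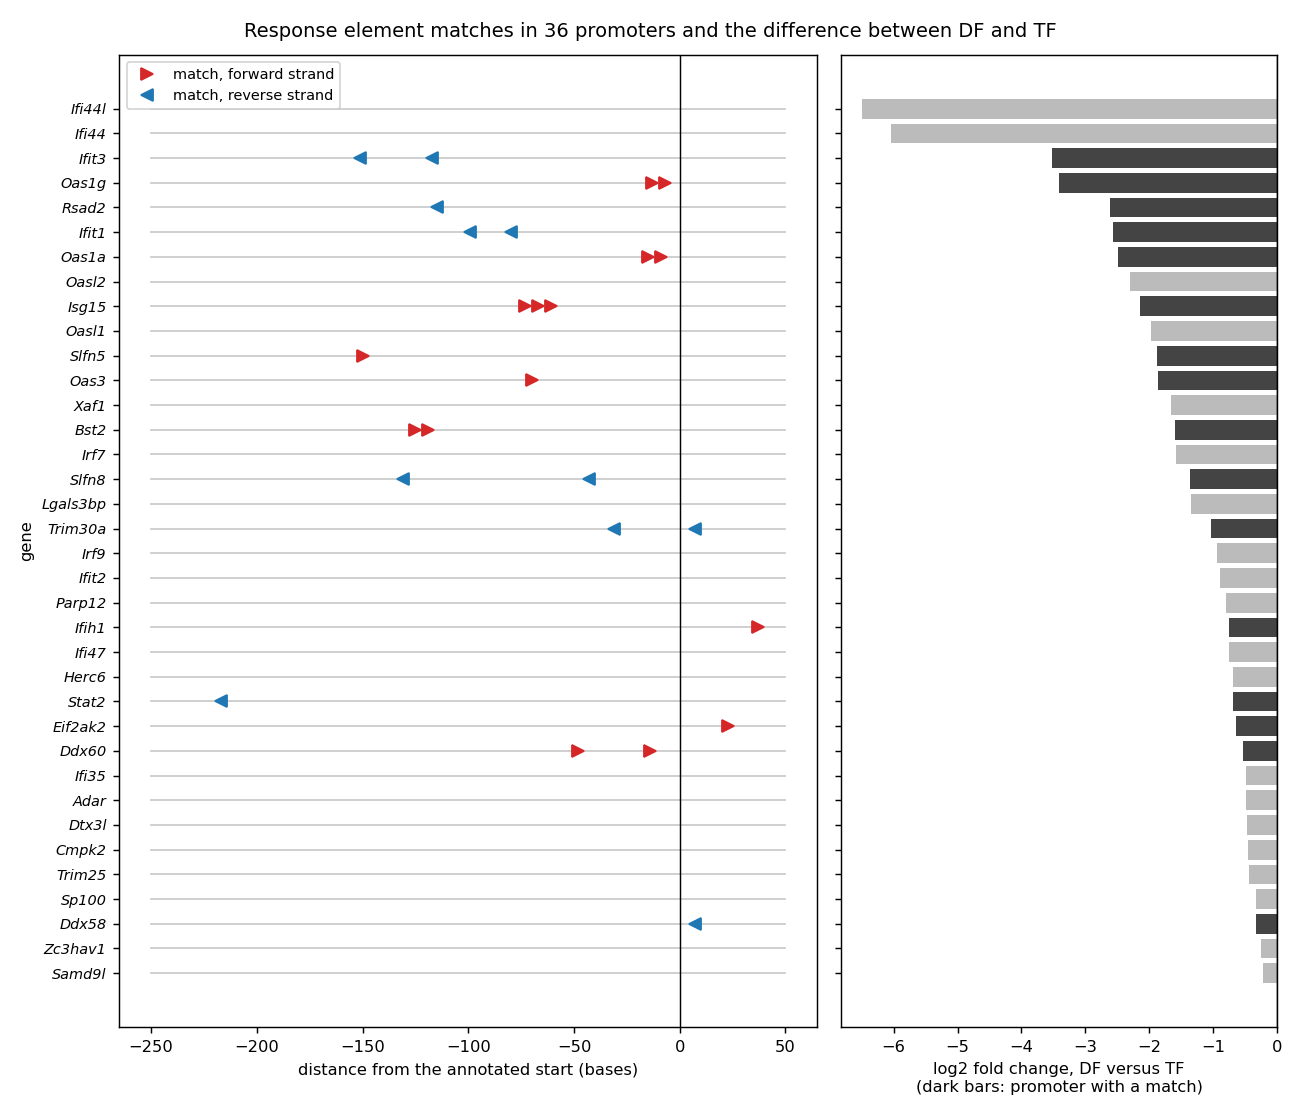
Position of each match of the response element core in the promoters of the 36 genes with an entry (left, in bases from the annotated start, with genes of several starts on one line) and the log2 fold change of DF versus TF of the same genes (right, dark bars for genes with a match). Matches begin between positions −222 and 33. Differences range from −3.52 to −0.33 for genes with a match and from −6.50 to −0.23 for genes without.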

How the data were processed

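RNA from whole BM cells of 11 libraries (3 WT, 3 DF, 3 TF and 2 TFD) was analysed. Per the labels and the study's methods, globin transcripts were depleted, stranded total RNA libraries were made, and reads were aligned to mm10 with STAR, kept if unique, and counted per gene of refGene with featureCounts. Versions and strand setting are not given in the sources used here. The authors deposited these values as raw counts per gene and kept genes above 0.5 CPM in more than 3 samples. A log2 CPM column set was deposited too and not used. From the counts, edgeR 4.0.16 in R 4.3.3 gave TMM factors (0.924 to 1.04) and the quasi-likelihood test over all 4 genotypes, with the same filter, which left 12175 genes, and Benjamini-Hochberg adjustment over them at 0.05. SE is the absolute log2 fold change divided by the root of F. DESeq2 1.42.0, limma 3.58.1 on log2(CPM + 1), other scaling, no filter, a term for Xist reads, a correction for gene length, a replicate block and leaving out each library were alternatives. The steps were tested on simulated data. Per-library values are given for Irf7, Irf9, Stat2, Isg15 and Usp18 and, in each comparison and direction, for up to 8 called members of largest absolute log2 fold change. The 47 genes, the other gene lists and the tests were chosen with earlier results of these data known. The number of counts limits the precision of genes near 0.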

Additional observations from a re-analysis of the deposited data

How the results depend on the processing

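No direction of a count or median over the 47 genes reversed. The counts that moved by more than 1.5 times did so as follows, and the cause was not tested. In TF versus WT, 1 gene was called lower with DESeq2, with the replicate block and with the term for Xist reads, and 2 with only libraries of few Xist reads, an alternative chosen after seeing the data. In TFD versus WT, 2 were then higher, and in DF versus TF the median was then −0.90. In DF versus TFD, DESeq2 called 9 lower, a fit of these groups alone 10, the replicate block 2 and the libraries with few Xist reads 2. In TF versus TFD, DESeq2 called 10 higher, the term for Xist reads 4 and the libraries with few Xist reads 1. Leaving out each library gave 13 to 25 lower in DF versus WT, 14 to 29 higher and 0 to 1 lower in TF versus WT, 2 to 5 higher and 0 to 6 lower in TFD versus WT, 18 to 38 lower in DF versus TF, 0 to 8 lower in DF versus TFD and 0 to 5 higher in TF versus TFD. Leaving out a TFD library left 1 TFD sample, which was assumed to vary like the other groups, and some settings removed Ifi44l from the test. Deviations of same-numbered libraries from their group means gave r from −0.30 to 0.25 over 15 pairs, with 3 pairs over 0.1. Of the 11 libraries, 4 matched best with a library of their own number. With 2 or 3 libraries per genotype these values cannot show whether the numbers pair the samples. The replicate block called 34 lower in DF versus TF and 25 higher in TF versus WT. Depth limits Ifi44l, Oas1g and Ifi44 most, each with at most 1 count in some library.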
